A study of Rattus norvegicus with 8 samples.

Results

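Cyr61, its relative Ctgf and 3 further members of the CCN family, Nov, Wisp1 and Wisp2, were followed in the small intestine, spleen and liver of rats given lavender oil (LO). The 5 genes were chosen by a result of these data, the lower Cyr61 ratio on the spleen arrays, together with the family members that the array carries. The features whose identifier was NM_031327 (Cyr61), NM_022266 (Ctgf), NM_030868 (Nov), NM_031716 (Wisp1) or NM_031590 (Wisp2) made up 15 of 43379 non-control features and 6 of 41012 probes on the array, or 5 of 36958 distinct identifiers. Cyr61 had 2 probes, A_42_P750683 and A_44_P218896, printed once each, the Ctgf probe was printed 10 times, and Nov, Wisp1 and Wisp2 had 1 probe each. All 5 identifiers matched a RefSeq gene, under the newer names Ccn1, Ccn2, Ccn3, Ccn4 and Ccn5.

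Male rats of 7 weeks received LO at 5 mg/kg, or 10% ethanol as the control, into the stomach once a day for 13 days, with 6 animals per treatment. The strain is recorded as Wistar in one field of the labels and as Fischer F334 in another. The labels place the dissection 14 days after treatment, and the paper's outline of the experiment places it on day 14, following the 13 days of dosing. RNA was pooled within each treatment, and a control pool and an LO pool were hybridised together on each of 8 two-dye arrays. The LO pool was labelled with Cy5 on array 1 of a dye swap and with Cy3 on array 2. The small intestine and the spleen had 1 swap each and the liver had 2, called liver pool 1 and liver pool 2, with no difference between them stated. The 2 arrays of a swap hold the same RNA pools, so their spread is technical and holds no variation between animals, and fewer cells of a type cannot be told apart from less RNA per cell. No array held more than 1 tissue, so effects of an array or of its slide cannot be told apart from those of tissue.

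CCN proteins are secreted matricellular proteins, which sit in the matrix around cells and signal through integrins and heparan sulphate proteoglycans rather than serving as structural fibres. Cyr61 and Ctgf are early growth-response genes and widely used readouts of YAP and TAZ, the coactivators that act through TEAD factors and respond to cell shape and stretch. Ctgf is also a target of TGF-beta and is known for its part in fibrosis of the liver and other organs. Nov is associated with growth restraint and haematopoietic progenitors, Wisp1 is a target of Wnt signalling, and Wisp2 differs from its relatives in lacking the cystine-knot domain at the end of the protein.

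The promoters of Cyr61 and Ctgf are shown because these 2 genes share the regulators named above while their LO ratios in spleen differed. Each stretch runs from 250 bases before to 50 bases after the start of the gene and was taken from RefSeq on the GRCr8 assembly, at chr2:237225640-237225939 for Cyr61 and chr1:22624565-22624864 for Ctgf, both on the minus strand and both written 5′ to 3′ along the gene. Capitals mark the core motif of TEAD factors, GGAATG or its reverse complement CATTCC.
Cyr61: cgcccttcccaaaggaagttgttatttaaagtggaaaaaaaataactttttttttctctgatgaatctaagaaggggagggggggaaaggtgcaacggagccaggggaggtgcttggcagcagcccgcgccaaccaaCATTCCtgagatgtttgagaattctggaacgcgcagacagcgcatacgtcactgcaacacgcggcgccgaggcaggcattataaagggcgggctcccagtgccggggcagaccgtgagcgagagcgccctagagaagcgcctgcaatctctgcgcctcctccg
Ctgf: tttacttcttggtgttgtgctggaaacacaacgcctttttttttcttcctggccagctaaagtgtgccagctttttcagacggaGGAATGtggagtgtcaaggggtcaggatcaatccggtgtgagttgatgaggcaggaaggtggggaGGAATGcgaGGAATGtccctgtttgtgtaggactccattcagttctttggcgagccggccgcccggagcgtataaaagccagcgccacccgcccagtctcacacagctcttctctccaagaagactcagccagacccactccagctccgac

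The Ctgf promoter held 3 copies of GGAATG, at positions -166 to -161, -101 to -96 and -92 to -87 counted from the start of the gene. In the Cyr61 promoter 1 copy stood, on the other strand, at -113 to -108. Of 33469 rat promoters of the same 300 bases, 14.2% held the motif on either strand and 0.0956% held it 3 or more times. Both promoters held a TATA box, TATAAA, at -31 to -26 in Ctgf and at -34 to -29 in Cyr61, as did 14.2% of all promoters on either strand. The CArG box of serum response factor was found in neither stretch and in 1.64% of all promoters. None of these matches overlapped another, and a match describes the letters only.

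Cyr61 had less than 0.7 times the control signal on both spleen arrays with both of its probes, whereas its ratios in the small intestine and liver lay on either side of 1. With probe A_42_P750683 the processed signal on spleen array 1 was 628 for control and 270.0 for LO, and on array 2 it was 494 and 239. The corresponding LO/control ratios were 0.430 and 0.484. With probe A_44_P218896 the signals were 227 for control and 142 for LO on array 1 and 215 and 98.1 on array 2, giving ratios of 0.625 and 0.457. Within each probe, both control signals exceeded both LO signals, whichever dye LO carried.

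On the log2 scale the mean of the spleen swap was -1.13 with A_42_P750683, a 2.19-fold lower signal, and -0.90 with A_44_P218896, a 1.87-fold lower signal. Of the 30613 probes compared in spleen, 14 had a lower value than the first probe and 68 had a lower value than the second. The error-model P of the scanner software was 1.81e-07 and 4.32e-06 on the 2 arrays for the first probe, and 0.00189 and 3.73e-06 for the second. These values come from the contrast that chose the genes, so they are a description and no test was made of them. With normexp background correction and loess the means were -0.94 and -0.65.

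In the small intestine the Cyr61 ratios were 1.02 and 0.872 with A_42_P750683, and 1.12 and 0.949 with A_44_P218896. Neither probe moved in the same direction on both arrays. In liver, A_42_P750683 gave 1.14 and 0.982 in pool 1 and 1.12 and 1.07 in pool 2, and A_44_P218896 gave 1.26 and 0.976 in pool 1 and 1.41 and 0.937 in pool 2. Ratios with LO in Cy5 were the higher ones within every small intestine and liver swap. The limma estimate in the small intestine was -0.09 (SE 0.07) with the first probe and 0.04 (SE 0.07) with the second, both with an adjusted p of 1. In liver it was 0.10 (SE 0.05, limma adjusted p = 0.84) and 0.18 (SE 0.05, limma adjusted p = 0.83). The 95% interval of the liver estimate ran from -0.10 to 0.31 for the first probe and from -0.03 to 0.38 for the second, and both intervals held 0.

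**Figure D1:**
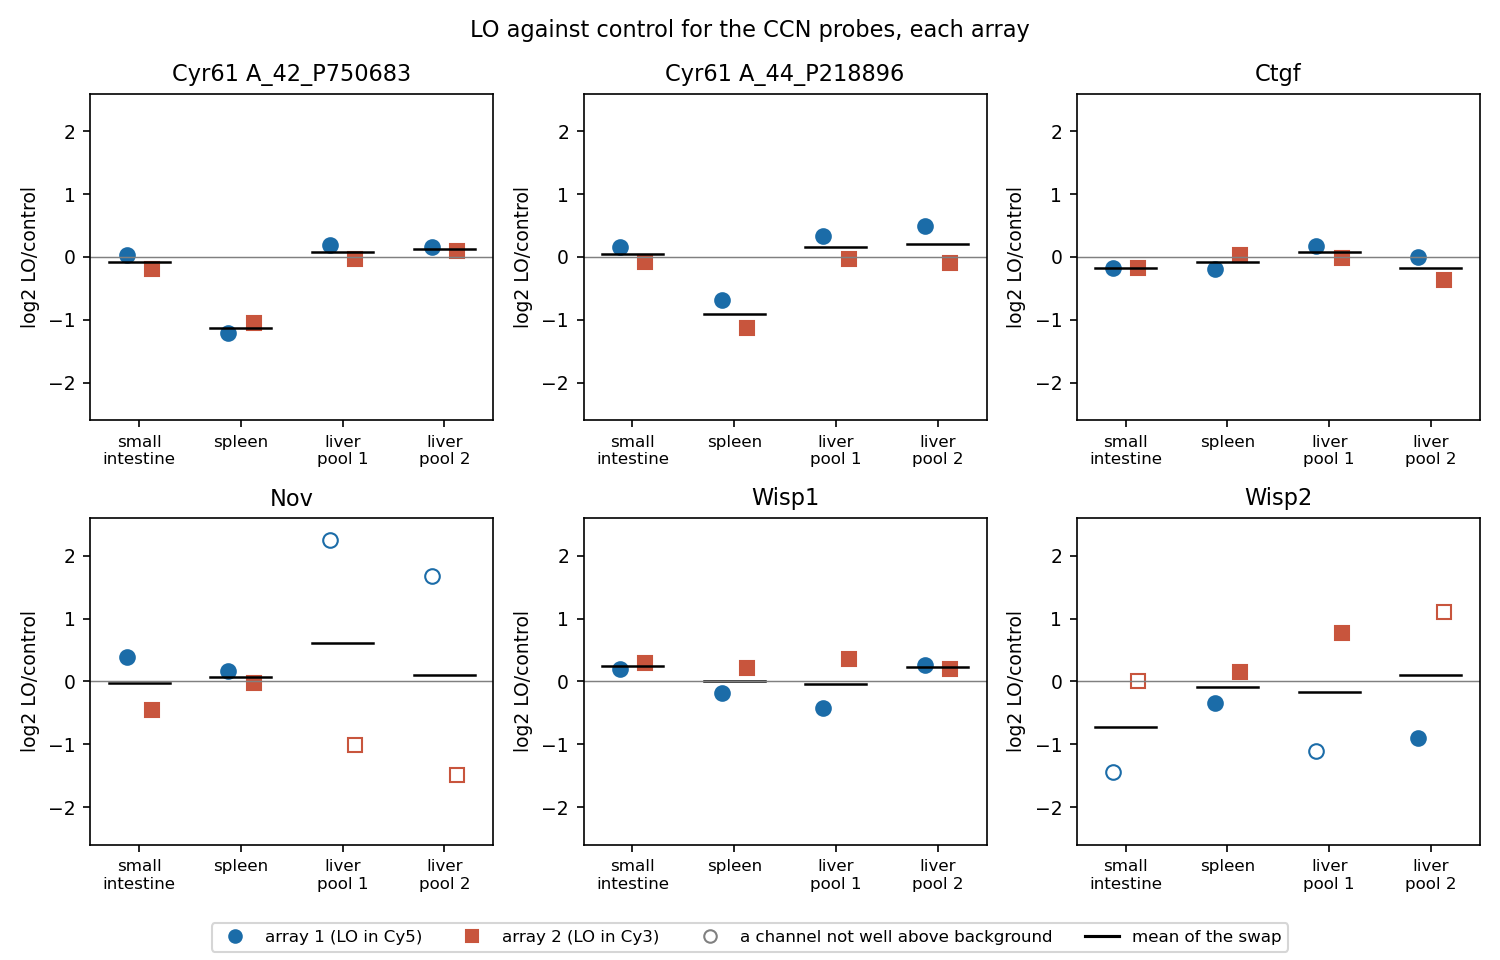
The log2 LO/control ratio (vertical axis) of each CCN probe on each array, by tissue and liver pool; circles are arrays with LO in Cy5, squares arrays with LO in Cy3, open symbols have a channel not well above background, and bars are swap means. Both Cyr61 probes lie below 0 on both spleen arrays, with means of -1.13 and -0.90, and Nov in liver lies above 0 on array 1 and below 0 on array 2 of each pool.

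Ctgf stayed near a ratio of 1 in all 3 tissues, spleen included. Averaged over the 10 printed copies, its ratio was 0.883 and 0.888 on the small intestine arrays, 0.872 and 1.02 on those of spleen, 1.12 and 0.989 in liver pool 1, and 1.001 and 0.778 in liver pool 2. In the small intestine the 2 arrays gave nearly the same ratio, below 1 on both, and in the other tissues they lay on either side of 1. Single copies ranged from 0.847 to 0.900 on spleen array 1 and from 0.966 to 1.04 on spleen array 2, and the SD over the 10 copies was 0.03 on the log2 scale on both. On the dimmer liver arrays the copies spread further, from 0.914 to 1.42 on array 1 of pool 1 and from 0.4996 to 1.02 on array 2 of pool 2. The limma estimate was -0.18 (SE 0.14, 95% interval -0.73 to 0.38, adjusted p = 1) in the small intestine and -0.05 (SE 0.10, 95% interval -0.44 to 0.34, adjusted p = 0.931) in liver. In spleen the mean was -0.09, against -1.13 and -0.90 for Cyr61.

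Nov, which in spleen and small intestine gave clear signal in both dyes, was close to 1 in these tissues once the swap was averaged. Its ratio was 1.31 and 0.731 on the small intestine arrays and 1.12 and 0.985 on the spleen arrays, with swap means of -0.03 and 0.07 on the log2 scale. In liver the 2 arrays of a swap disagreed widely. The ratio was 4.74 on array 1 and 0.494 on array 2 of pool 1, and 3.20 and 0.356 in pool 2. The channel labelled with Cy5 was the brighter on all 4 liver arrays, and the Cy3 channel was not well above background on any of them, at 8.21, 25.1, 19.1 and 34.0 signal units. Nov in liver therefore gave a dye difference of 1.63 and 1.58 on the log2 scale (the difference between the arrays divided by 2) beside LO means of 0.61 and 0.09. The limma estimate in liver was 0.35 (SE 0.18, adjusted p = 0.84), with a 95% interval from -0.36 to 1.07.

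Wisp1 was well above background in every channel. Its ratio was 1.14 and 1.23 on the small intestine arrays, above 1 on both, and 0.879 and 1.15 on the spleen arrays. In liver it was 0.743 and 1.28 in pool 1 and 1.19 and 1.14 in pool 2. The limma estimate was 0.24 (SE 0.14, 95% interval -0.32 to 0.81, adjusted p = 1) in the small intestine and 0.09 (SE 0.10, 95% interval -0.31 to 0.49, adjusted p = 0.874) in liver.

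Wisp2 was dim, and on part of the small intestine and liver arrays its ratio came from channels not well above background. In the small intestine only the control channel of array 1 was well above background, at 18.2 against 6.69 for LO, a ratio of 0.368, and on array 2, where neither channel was, the deposited ratio was exactly 1. The spleen arrays, with all channels well above background, gave 0.789 and 1.11. The liver arrays gave 0.464 and 1.71 in pool 1 and 0.535 and 2.14 in pool 2, below 1 with LO in Cy5 and above 1 with LO in Cy3 in both pools. The small intestine estimate of -0.72 (SE 0.14, limma adjusted p = 1) was the only member value in the small intestine and liver with an unadjusted p under 0.05, and it rests on the 1 array with a measured channel.

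None of the 6 probes was called in the small intestine or in liver at an adjusted p under 0.05. The background was the same in the limma fit on swap averages, with 0% of probes called in each tissue, while 1205 probes in the small intestine, 1303 in spleen and 1781 in liver had an unadjusted p under 0.05. Only the 2 liver pools gave this fit a residual, with 1 degree of freedom, and the small intestine and spleen pools were assumed to vary like them, so a miss shows little. The median log2 LO/control over the 6 probes was -0.06 in the small intestine, -0.09 in spleen and 0.10 in liver, against 0.00 over all probes in each tissue. The difference between the liver and the small intestine in LO response was 0.19 and 0.13 for the Cyr61 probes, with a limma adjusted p of 0.993 for both.

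Counted by the cut-offs in the methods (a ratio of at least 1.5 in one dye orientation and at most 0.75 in the other, with an error-model P under 0.01 on both arrays), both Cyr61 features were lower in spleen, and no other CCN feature passed in any tissue. The Cyr61 features were chosen by these same spleen ratios, so their passing is a description from which nothing is read. The share of all features that passed was 0.0161% in spleen, 0.0208% for small intestine, 0.0208% in liver pool 1 and 0.0392% in liver pool 2. In spleen these were 7 features, 3 higher and 4 lower, and the 2 Cyr61 features are among the lower ones. Of the CCN values that passed, the nearest to the limits was A_44_P218896 on spleen array 1, with its ratio of 0.625 and P of 0.00189, and the CCN value nearest outside in spleen was Wisp2 at 0.789 on array 1.

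**Figure D2:**
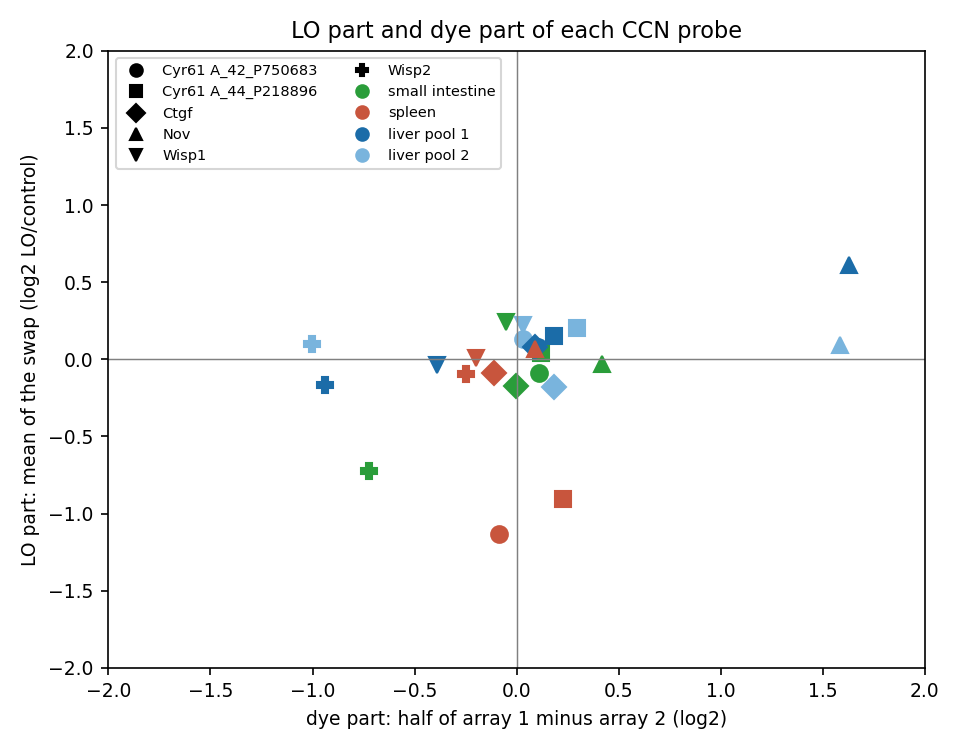
The LO part of each CCN probe (vertical axis, mean log2 LO/control of a swap) against its dye part (horizontal axis, array 1 minus array 2 divided by 2, log2), with symbols for probes and colours for tissues and liver pools. The 2 Cyr61 probes in spleen lie at -1.13 and -0.90 on the vertical axis with dye parts of -0.09 and 0.23, while Nov in liver lies at 1.63 and 1.58 on the horizontal axis.

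Dye orientation also separated the arrays over all probes. The log2 LO/control values of the 2 arrays of a swap correlated at -0.63 in the small intestine, -0.60 in spleen and -0.72 in both liver pools, across probes, which are not independent replicates. A value below 0 on both arrays was found for 12.5% of probes in the small intestine and 15.8% in spleen, and a value above 0 on both for 14.1% and 15.0%. The share of features with both channels well above background ranged over the arrays from 44.3% to 64.7%, and was lowest in liver.

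Genes around the CCN proteins were described from lists of receptors, regulators and shared targets, using for each gene the brightest probe that could be matched. No listed gene was called in the limma fit in any tissue. Of 11 CCN receptor genes 4 were matched, and their median log2 LO/control was -0.13 in the small intestine, 0.01 in spleen and 0.11 in liver. All 4 receptors lay below 0 on both small intestine arrays, among them Itgb1, the integrin beta-1 chain, at -0.09 and -0.07, and Itgb3, the beta-3 chain, at -0.18 and -1.07, the latter not above background in that tissue. Of the components of the YAP pathway 3 of 14 were matched, and Wwtr1, which encodes TAZ, was at -0.13 and -0.15 on the spleen arrays.

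Other genes of the YAP signature stood on both sides of 0 in spleen. Of 20 listed 9 were matched, with a median of 0.02 in spleen, 2 above and 2 below 0 on both arrays. Ankrd1, a nuclear and muscle ankyrin protein that is a common YAP readout, was at -0.45 and 0.22, and Axl, a receptor tyrosine kinase, at 0.19 and -0.02. The TGF-beta ligands, receptors and SMADs, all 10 matched and 9 bright enough for the fit, had medians of -0.01 in the small intestine, -0.01 in spleen and 0.02 in liver. Tgfb1 stood at 0.20 and -0.06 in spleen, Tgfb2 at -0.28 and 0.49, Tgfb3 at -0.14 and 0.06 and the receptor Tgfbr1 at 0.17 and -0.04.

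Among the matrix genes that TGF-beta induces, Col1a2, a fibrillar collagen, was at 0.19 and 0.00 in spleen, and Thbs1, thrombospondin, was above background in 1 of 4 channels there. Of 7 Wnt targets 4 were matched, with a median of -0.03 in the small intestine, 0.05 in spleen and 0.17 in liver. Axin2, the feedback inhibitor of the pathway, was at 0.32 and -0.44 in spleen, and Lef1, a transcription factor of lymphocytes, at 0.23 and -0.14.

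Cyr61 is itself induced as an immediate early gene, and 14 of the 15 listed genes of that class were matched. In spleen 4 of them lay below 0 on both arrays and 3 above, with a median of -0.09. Fos, a subunit of the AP-1 factor, was the one that passed the cut-offs in spleen, at -0.64 and -0.84, and its levels were 77.2 in the control pool and 46.2 in the LO pool. The limma estimate for Fos in spleen was -0.74 with an adjusted p of 1. Jun, the AP-1 partner of Fos, was at -0.04 and -0.31, and Junb at -0.22 and 0.01. Egr1, a zinc-finger factor, was at 0.00 and -0.25 in spleen and at -0.52 and -1.31 in liver pool 2, where 2 of its 10 printed copies passed the cut-offs.

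Markers of each labelled tissue were bright in it, though not all were highest there. Fabp2, the intestinal fatty acid binding protein, was at a level of 159910 in the small intestine, 447 in liver and not above background in spleen. Cd79b, a chain of the B cell receptor, was at 20546 in spleen and 178 in the small intestine. Alb, albumin, was at 154850 in liver. Against this, Apob of the enterocyte markers was at 46216 in liver and 33994 in the small intestine. Apoa1 of the hepatocyte markers was at 141900 in the small intestine and 85813 in liver. Genes of the exocrine pancreas were bright in the small intestine, and the summed level of the 6 markers, among them Prss1 (trypsin) and Amy2a3 (amylase), was 815420 in the control pool and 693850 in the LO pool.

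In spleen the hepatocyte markers stood higher in the LO pool than in the control pool, opposite to Cyr61. Their summed level was 496 in the control pool and 728 in the LO pool, against 756940 to 786680 in the liver pools. Alb alone was at 355 in the control pool and 521 in the LO pool. Of the 7 markers 5 were above 0 on both arrays, among them Alb at 0.90 and 0.20, while Ttr, transthyretin, was at 1.23 and 0.00 and Tat was not above background. Among the 5, Fga was well above background in 1 of 4 spleen channels and Apoa1 in 2 of 4, against 4 of 4 for Alb, Serpina1 and Fgb. None was called. In the limma fit 6 of 7 had an unadjusted p under 0.05, beside 1303 of 30613 probes in spleen. The residual of that fit comes from the liver pools, where hepatocyte markers are bright, so this p does not measure their spread in spleen. The fibroblast markers were at a summed 22071 in the control and 24200 in the LO pool of the spleen, 4 of 5 above 0 on both arrays. The lymphocyte markers summed to 32934 and 32444, the smooth muscle markers to 20109 and 21269, the endothelial markers to 11230 and 11538, and the mesothelial markers to 4621 and 4664. The part of any of these in the Cyr61 value was not tested.

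**Figure D3:**
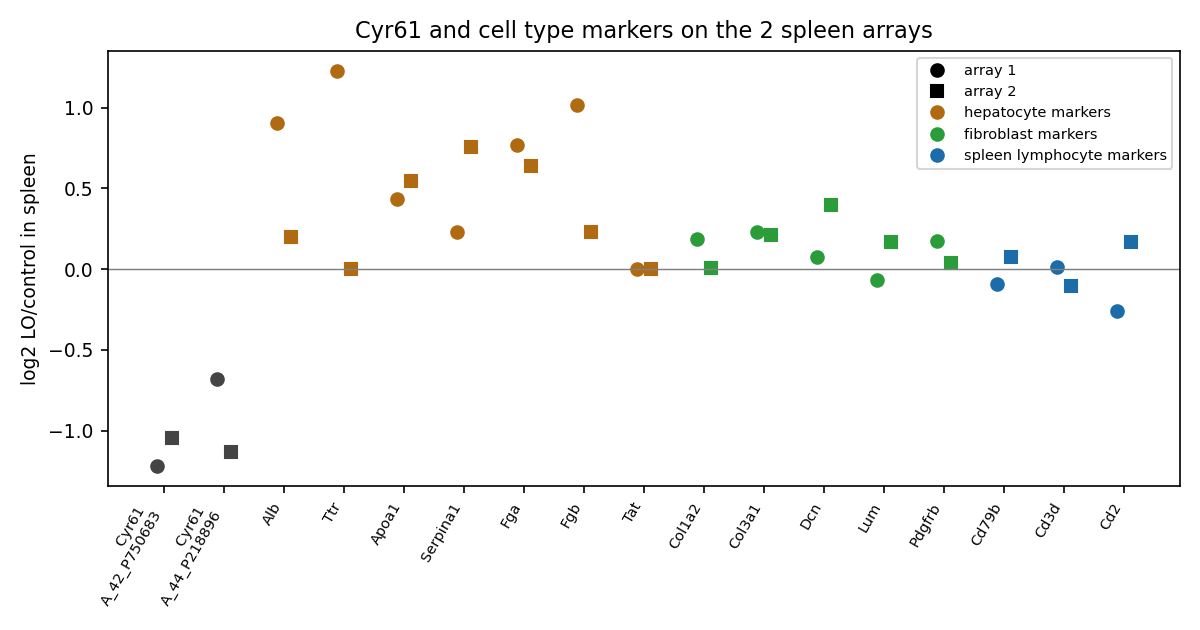
The log2 LO/control ratio in spleen (vertical axis) of the 2 Cyr61 probes and of hepatocyte, fibroblast and lymphocyte markers (horizontal axis); circles are array 1 and squares array 2. Cyr61 lies below 0 on both arrays and 5 of 7 hepatocyte markers lie above 0 on both.

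The levels of the CCN genes were also compared between the 3 tissues, over the 8 RNA pools. The Cyr61 levels in the control and LO pools of spleen come from the signals whose ratio chose the genes, so the Cyr61 comparisons with spleen are a description with no test. A level here is the processed signal of a channel after normalisation between arrays, averaged over the Cy3 and Cy5 measurement of a pool, in signal units. It can be compared between pools for one probe but not between probes. In the limma fit 52.2% of all probes differed between spleen and small intestine, 64.8% between liver and small intestine and 70.2% between liver and spleen. Of the 6 CCN probes 2, 4 and 2 were called in these comparisons, and the share was close to the background for liver minus small intestine. In both comparisons with spleen the 6 include the Cyr61 probes, which were not called and are a description there. Those shares are therefore not read against the background. The p-values rest on the spread between pools of a tissue once treatment was fitted. The control and LO pool of a swap share their arrays. Replicate pools of the same treatment exist for liver alone. In the small intestine and spleen the spread is that between a control and an LO pool from the same arrays. The p-values therefore do not measure spread between replicate pools of the small intestine or spleen. Normalisation set the pools to a common median: without it the log2 median of all probes was 6.91 in the control pool of the small intestine, 7.17 in that of spleen, and 6.33 and 6.37 in those of liver.

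Ctgf was highest in spleen, lower in the small intestine and lowest in liver. Its level was 492 in the control and 463 in the LO pool of spleen, 371 and 329 for small intestine, and 134, 141, 135 and 119 in the liver pools, control before LO in pool 1 and then in pool 2. No pool of one tissue overlapped those of another. The spleen was 1.37-fold above the small intestine (log2 0.45, SE 0.13, adjusted p = 0.026), which with array 1 of each swap left out was 0.34 with an adjusted p of 0.163. Liver was 2.64-fold below the small intestine (log2 -1.40, SE 0.11, adjusted p = 0.000107) and 3.62-fold below the spleen (log2 -1.85, SE 0.11, adjusted p = 2.63e-05). With normexp, loess and Aquantile the liver differences were -0.932 and -1.27, both still called.

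Nov showed the same order of tissues. It was at 115 and 121 in the spleen pools, 92.1 and 90.0 in those of small intestine, and 26.2, 40.1, 50.0 and 53.4 in the liver pools. The spleen and small intestine pools did not overlap, but the difference of 0.37 did not pass the test (SE 0.33, limma adjusted p = 0.402). This difference was the same with either liver pool left out, since it rests on the other pools. Liver lay below the small intestine by a log2 difference of -1.15 (SE 0.29, adjusted p = 0.0143) and below the spleen by one of -1.53 (SE 0.29, adjusted p = 0.00408). With normexp, loess and Aquantile these differences shrank to -0.365 (adjusted p = 0.0296) and -0.503 (adjusted p = 0.00698). In liver only the 4 Cy5 measurements of 8 were well above background, and Cy5 was between 1.69 and 5.64 times Cy3 for the same pool. With array 1 left out the adjusted p-values rose to 0.15 and 0.053.

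Wisp2 was lowest in the small intestine. Its level was 10.1 in the control and 5.99 in the LO pool of the small intestine, 36.4 and 34.2 in the spleen pools, and 37.6, 33.5, 41.7 and 44.6 in the liver pools. Only 1 of 4 small intestine measurements and 4 of 8 liver measurements were well above background, against 4 of 4 in spleen. The spleen lay above the small intestine by a log2 difference of 2.18 (SE 0.24, adjusted p = 0.000654) and liver by one of 2.33 (SE 0.21, adjusted p = 0.000199). With normexp, loess and Aquantile these were 0.387 (adjusted p = 0.00662) and 0.467 (adjusted p = 0.00112). The pools of liver and spleen overlapped, and the tissues differed by 0.15 (SE 0.21, limma adjusted p = 0.549). With array 2 of each swap left out the spleen difference was 1.23 with an adjusted p of 0.0985.

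Wisp1 differed between the liver pools themselves. It was at 51.8 and 50.4 in the control and LO pool of liver pool 1 and at 118 and 138 in liver pool 2, so that pool 2 was 2.28-fold and 2.73-fold higher. The small intestine pools, at 65.5 and 77.6, lay between them, and the spleen pools, at 34.4 and 34.7, were below every other pool. None of the 3 comparisons was called: spleen minus small intestine was -1.05 (SE 0.56, limma adjusted p = 0.176), liver minus small intestine 0.18 (SE 0.49, adjusted p = 0.767) and liver minus spleen 1.22 (SE 0.49, adjusted p = 0.0653). Leaving out liver pool 1 made liver minus small intestine 0.84, and leaving out pool 2 turned it to -0.48. Liver minus spleen was 1.88 without pool 1 and 0.56 without pool 2. Spleen minus small intestine stayed at -1.05 in both fits, since its pools were unchanged. Each of these fits keeps 1 control and 1 LO pool per tissue and so holds no replicate pools.

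The 2 Cyr61 probes did not give the same order of tissues. With A_42_P750683 the control spleen was highest, at 394, and the LO spleen was at 180, beside 208 and 196 for small intestine and 214, 226, 166 and 181 in the liver pools. With A_44_P218896 the control spleen, at 160, lay among the liver pools, at 145, 161, 150 and 173, and the LO spleen, at 85.3, lay below the small intestine pools, at 92.6 and 95.4. Between liver and small intestine, A_44_P218896 was 1.67-fold higher in liver (log2 0.74, SE 0.25, adjusted p = 0.0408). For A_42_P750683 the same comparison gave -0.05 (SE 0.30, adjusted p = 0.904). Without normalisation between arrays the A_44_P218896 difference was 0.18 with an adjusted p of 0.554, while liver minus spleen with A_42_P750683 went from -0.45 to -1.30. The A_44_P218896 difference between liver and small intestine was also not called with normexp, loess and Aquantile (0.415, adjusted p = 0.0607), without array 2 of each swap (0.652, adjusted p = 0.0673), or without liver pool 1 or pool 2 (adjusted p of 0.0699 and 0.097).

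With all 16 channels and a replicate block, 4 CCN probes in place of 2 were called between liver and spleen, the added ones being Wisp1 (1.22, adjusted p = 0.01) and A_44_P218896 for Cyr61, whose comparison with spleen is a description. Over all probes that fit called 23361 in place of 21483. That fit counts each channel as a sample. The control pools on their own gave the same direction for Ctgf, Nov and Wisp2 in every called comparison, with 0, 1 and 1 of the CCN probes called between spleen and small intestine, liver and small intestine, and liver and spleen.

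**Figure D4:**
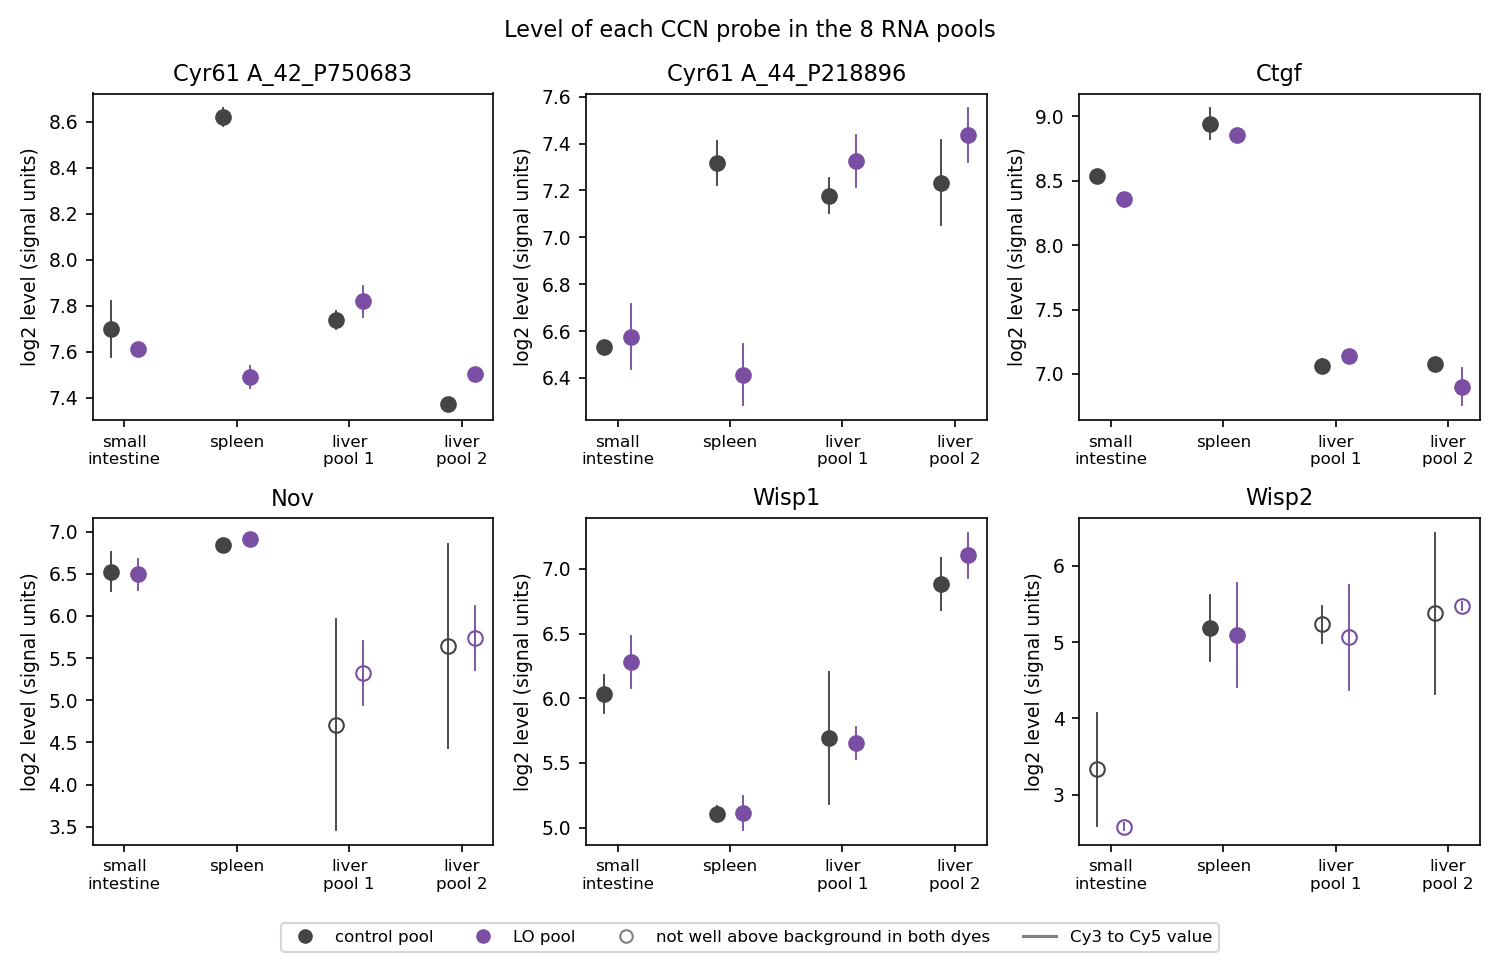
The log2 level (vertical axis, signal units) of each CCN probe in the 8 RNA pools, control pools in grey and LO pools in violet; lines join the Cy3 and Cy5 value of a pool, and open circles were not well above background in both dyes. Ctgf falls from spleen to small intestine to liver, Wisp1 differs between the liver pools, and for Cyr61, which was chosen by this contrast, the control spleen stands apart from the LO spleen.

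Across the 8 pools, the 5 genes whose level was most like the mean of the Cyr61 probes were Dpcd, Secisbp2, Mtrex, Ciapin1 and Ntmt1, with Pearson r of 0.62, 0.61, 0.61, 0.60 and 0.59 among 5426 probes that carried a symbol and were well above background in every channel. The control and LO pool of a swap share their arrays, and r here is a description. The Cyr61 probes themselves correlated at 0.30 over the 8 pools. Of the other members, Ctgf and Nov followed each other most closely, with r of 0.91, and Ctgf correlated with the Cyr61 probes at 0.44 and -0.67.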

How the data were processed

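RNA pools of 3 tissues were measured on Agilent 2-dye arrays. The authors extracted the images with Agilent Feature Extraction 11.0.1.1, per the labels, and deposited the log10 ratio of Cy5 over Cy3 after background subtraction and LOWESS normalization. The deposited p-value of each ratio comes from the error model for 1 array. The deposited intensity values are processed Cy3 and Cy5 signals, with dim signals replaced by surrogates, and median pixel signals before correction. Ratios were turned to log2 LO/control. Copies of a probe were averaged, without control spots and outlier flags. The cut-off counts leave out 34 features with a non-uniformity flag on at least 1 of the arrays.

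limma 3.58.1 (R 4.3.3) fitted the 4 swap averages with 1 coefficient per tissue, over 30619 probes well above background in 1 channel on at least 2 arrays, with Benjamini-Hochberg adjustment over all of them and a threshold of 0.05. Channel levels (Aquantile) were averaged per pool and fitted with tissue and treatment over 30592 probes. Deviations of the same array number correlated between swaps at 0.55 to 0.81; the number marks the dye orientation. Scripts were tested on simulated data. The number of arrays limits the precision. Of 41012 probes 10768 matched a RefSeq symbol. The members and lists were chosen with earlier results of these data known. A gene of the TGF-beta matrix list is not reported here, for a reason other than its values, and no count or median of that list is given. Named genes were all CCN probes, the first 4 symbols of each pathway list where matched, and listed genes past the cut-offs. Further ones were the first 2 of each marker list where they bear on a result, Apob as a marker brighter in another tissue, the hepatocyte markers described in spleen, and the 5 genes most like Cyr61. The array design coordinates belong to another build than the RefSeq table, so no gene coordinates are given. Alternatives were the replicate block, 8 arrays without it, normexp (offset 50) with loess, other filters on dim probes, each array number or liver pool left out, ratios of exactly 1 as missing, the series matrix values, other cut-offs and other scalings of the levels.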

Additional observations from a re-analysis of the deposited data

How the results depend on the processing

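Of the 167 log2 LO/control values recomputed under the alternatives 149 kept their sign, and 18 turned, 5 in the small intestine, 4 in spleen and 9 in liver. Of 180 level differences 146 kept their direction and their side of the threshold. Normexp with loess raised the probes called for LO from 0 to 34 in the small intestine, 115 in spleen and 158 in liver, and the 8-array fits with and without the replicate block called 1 in the small intestine; no CCN probe in the small intestine or liver was among them, and the block changed no other LO call. Normexp turned Nov in the small intestine to 0.0724 and Wisp2 in liver to 0.0469. LO estimates with 1 array of each swap left out, so that LO stands in 1 dye, are given without array 1 first and without array 2 second. In the small intestine they were -0.198 and 0.0247 for A_42_P750683, -0.0748 and 0.161 for A_44_P218896, -0.452 and 0.386 for Nov, and 0 and -1.44 for Wisp2. In liver they were -0.0641 and 0.417 for A_44_P218896, -0.189 and 0.0853 for Ctgf, and -1.25 and 1.96 for Nov. For Wisp1 in liver they were 0.273 and -0.0876, and for Wisp2 0.935 and -1.01. In spleen, Ctgf turned to 0.0264, Nov to -0.0225 and Wisp2 to 0.156 without array 1, and Wisp1 to -0.186 without array 2. Without liver pool 2 Ctgf in liver turned to 0.077 and Wisp1 to -0.038, and without pool 1 Wisp2 turned to 0.0977. Without a P threshold the cut-offs passed 309 features in the small intestine, 239 in spleen, 351 in liver pool 1 and 543 in pool 2, and with P below 0.001 1 in spleen and 3 in each liver pool.

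For levels, leaving out array 1 or 2 gave 1 CCN probe called between spleen and small intestine in either case. It gave 3 between liver and small intestine and 1 to 3 between liver and spleen. Over all probes the counts called were 13423 and 14410, 16780 and 18753, and 18800 and 20537 in these 3 comparisons. Wisp2 then ranged from -0.576 to 0.873 for liver minus spleen. Over these and the fits without a liver pool, liver minus small intestine ranged from -0.216 to 0.125 for A_42_P750683 and from -0.481 to 0.838 for Wisp1. The fits without liver pool 1 or 2, alternatives chosen after seeing the data, keep 1 control and 1 LO pool per tissue. In them the CCN differences between spleen and small intestine were the same as in the main fit. With no normalization between arrays Wisp1 turned to -0.374 (liver minus small intestine), and A_44_P218896 to -0.399 and Wisp2 to -0.48 (liver minus spleen). The 16 channels with the replicate block called 4 CCN probes between liver and spleen, beside 23361 of all probes. The control pools alone called 3660, 6846 and 10102 of all probes in the 3 comparisons and 0, 1 and 1 CCN probes, and turned A_44_P218896 to -0.113 for liver minus spleen. Beyond what these alternatives leave out, the causes were not tested. Signal over background limits Wisp2 everywhere but in spleen, and Nov in liver.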
